A study of Homo sapiens with 12 samples.

Results

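Genes of the hypoxia response and of glycolysis were followed in A549 and HTB56, a pair of established human lung cancer lines, before and after selection for growth in mouse lungs. A549 came from a lung adenocarcinoma, and Calu-6 is another name of HTB56. The groups were the parental cells with 0 rounds of selection (A0R and H0R) and cells after 3 rounds of selection in mice (A3R and H3R). Selection was for the ability to seed tumour nodules in the lung from an injection into a vein. Each of the 4 groups had 3 arrays, 12 in all, and none of the cells had received 5-azacytidine. The number of animals behind each selected line, the oxygen level of the cultures and whether replicates were separate cultures are not stated by the labels. A p-value therefore measures the spread between these arrays, which may be technical, and the data compare 1 selected line with each parent.

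The set was a list of 41 named genes, chosen with earlier results of these data known. Each was represented by the brightest probe set that the platform annotation gives to that gene alone. 39 of the 41 had such a probe set, out of 18417 genes of the table, and all 39 passed the filter on dim probe sets that left 16939 genes for testing. PGAM1, whose 5 probe sets are shared with PGAM4, and CA9 were not analysed here. All values are log2 signals normalized by RMA, so a difference of 1 is a 2-fold change, and the 20th percentile of an array, the level of the filter, lay at 3.48 on average. Called genes are those whose limma adjusted p, over all genes tested, was below 0.05. Levels are compared between groups for a gene, and between genes only to show which read near the level of dim markers. Several glycolytic genes, GAPDH and PGK1 among them, have processed copies elsewhere in the genome, and signal from such copies cannot be told apart here.

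Cells read oxygen through prolyl hydroxylases of the EGLN family, which mark the alpha subunits of the hypoxia-inducible factors, HIF1A and EPAS1 (HIF2 alpha), for destruction while oxygen is present. When oxygen falls, the alpha subunits persist, pair with ARNT and bind short DNA elements beside target genes. The targets include glucose transporters and most enzymes of glycolysis, which turns glucose into pyruvate and lactate, the kinase PDK1 that keeps pyruvate out of mitochondria, carbonic anhydrases that handle the acid produced, secreted factors such as VEGFA, and mitophagy genes such as BNIP3. Many tumour lines run glycolysis at a high rate in full oxygen. The regulation of the alpha subunits is largely at the protein level, which arrays of mRNA do not measure.

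Of 6 epithelial markers used to check the lines, all 6 were called lower in unselected HTB56 than in unselected A549, from KRT18 (13.55 in A0R and 12.69 in H0R) to CDH1 (9.53 and 4.55). Of the lung lineage genes, FOXA2 had group means of 8.03 to 8.69. The group means of the other 5 tested, NKX2-1 and surfactant genes among them, stayed between 4.14 and 5.76. The array medians were 5.55 to 5.67. The array of A0R replicate 2 stood apart: for 13 genes that were bright in HTB56 (at least 8) and dim in A549 (a median of at most 4.5), its median excess over the A549 median was 0.84. On the other 5 A549 arrays that excess was -0.11 to 0.02. Arrays with the same replicate number deviated together. A fit with the number as a block is given where it changes the call of a listed gene or a list count printed below.

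With selection, 1 of the 12 glycolytic enzymes (8.33%) was called in HTB56, beside 19.5% of all genes. Of the secreted and the other hypoxia-induced genes on the list, 3 of 5 and 4 of 8 were called there. These groups of genes are small, and their shares were not tested against each other. In HTB56, 11 of the 39 genes were called, or 28.2%, with 4 higher and 7 lower in H3R. Of all genes tested in HTB56, 19.5% were called (8.57% higher and 10.9% lower). Because the list was chosen with earlier results of these data known, these shares are a description with no test. In A549, limma called STC1 alone among the 39, or 2.56%, where 1.75% of all genes were called (0.945% higher and 0.809% lower). Unadjusted, 8 of the 39 had a limma p under 0.05 in A549, a larger share than the 1688 of all 16939 genes, a description with no test. The block raised the A549 count to 3, with 1 higher and 2 lower. Over all genes it gave 297 higher and 265 lower there, beside 160 and 137 without it. In HTB56 the block gave 5 higher and 8 lower of the 39. Over all genes it gave 2186 higher and 2558 lower there, beside 1452 and 1846 without it. The median change of the 39 was -0.09 in A549 and -0.03 in HTB56, beside medians of -0.01 and 0.02 over all genes. Changes had the same sign in both lines for 24 of the 39 (61.5%), 17 of them lower and 7 higher, beside 50.4% of all genes, a description with no test.

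**Figure D1:**
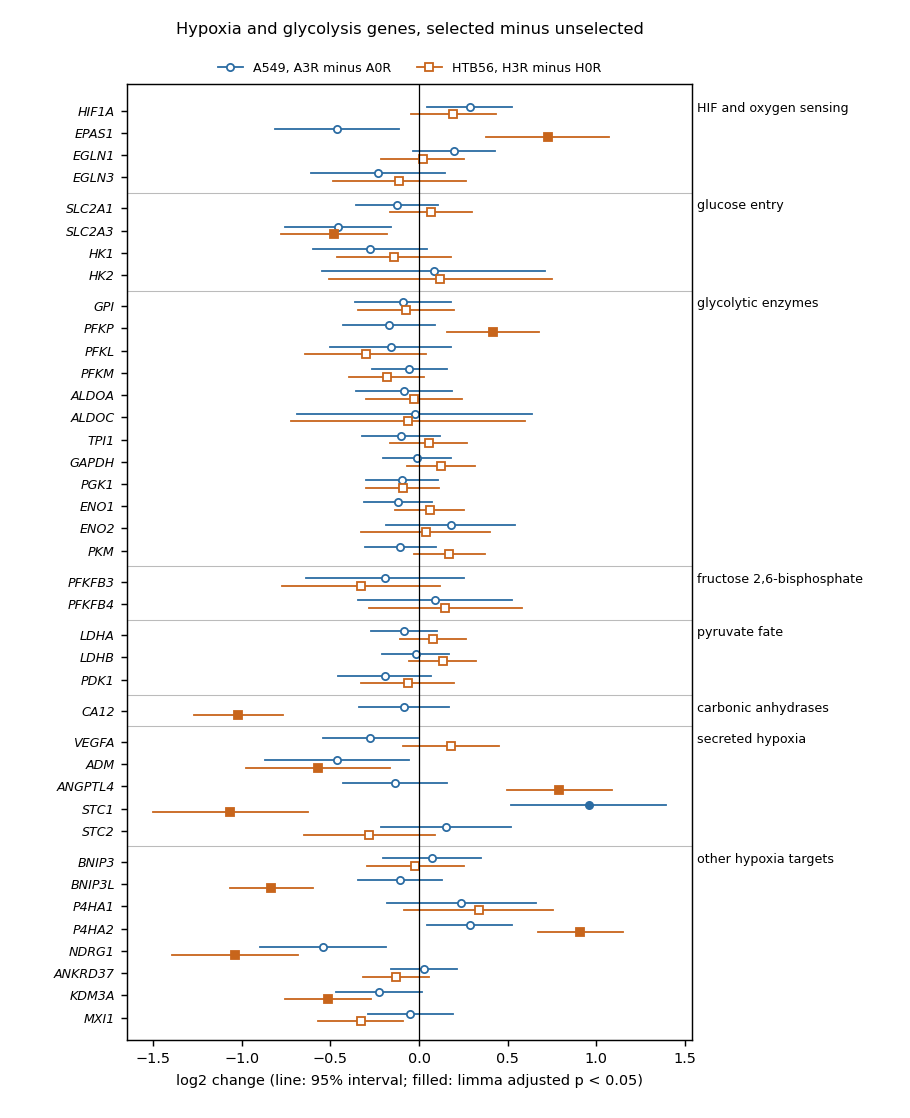
Log2 change of the 39 genes with selection, by role, in A549 (A3R minus A0R, circles) and HTB56 (H3R minus H0R, squares), with 3 arrays per group. Lines are 95% intervals from the limma fit and filled symbols have an adjusted p below 0.05. The 12 glycolytic enzymes lie between -0.30 and 0.42 in HTB56 and between -0.17 and 0.18 in A549, and the filled symbols outside them are mostly secreted and other hypoxia-induced genes of HTB56.

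Among the oxygen sensors and their factors, EPAS1 was the only member called with selection. This gene encodes the HIF2 alpha subunit. Its signal was 7.37, 7.56 and 7.36 on the H0R arrays and 8.40, 8.12 and 7.95 on the H3R arrays. The groups did not overlap, and EPAS1 rose by 0.73 in selected HTB56 (SE 0.16, limma adjusted p = 0.00522). In A549, where EPAS1 was much brighter, the arrays read 11.19, 10.90 and 10.88 in A0R and 10.80, 10.64 and 10.15 in A3R, also without overlap. That difference of -0.46 (SE 0.16) was not called (adjusted p = 0.265). HIF1A, the alpha subunit of HIF1, was 10.62 ± 0.11 (SD, n = 3) in A0R, 10.91 ± 0.15 in A3R, 10.71 ± 0.13 in H0R and 10.91 ± 0.10 in H3R, and was not called in either line. Its differences were 0.29 in A549 (limma adjusted p = 0.349) and 0.19 in HTB56 (0.291), where its arrays did not overlap. The hydroxylase gene EGLN1 differed by 0.20 in A549 and 0.02 in HTB56 between selected and unselected cells. EGLN3, a hydroxylase gene that is itself induced by HIF, differed by -0.23 in A549 and -0.11 in HTB56, and neither hydroxylase was called.

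Glucose enters the cell through the transporters SLC2A1 (GLUT1) and SLC2A3 (GLUT3) and is trapped by the hexokinases HK1 and HK2. SLC2A3 read 9.73, 9.81 and 9.86 in H0R and 9.31, 9.36 and 9.28 in H3R. All H3R arrays were below all H0R arrays, and SLC2A3 fell by 0.48 (SE 0.14, limma adjusted p = 0.0253). In A549 it read 9.39, 9.13 and 9.24 in A0R and 8.82, 8.45 and 9.12 in A3R, a difference of -0.46 that was not called (adjusted p = 0.166). The HTB56 call of SLC2A3 was lost without H0R replicate 2 or 3 or any H3R array (adjusted p 0.0563 to 0.0745), and a call in A549 appeared without A3R replicate 3 (0.0255) and with array weights (0.033). SLC2A1 stood at 10.71 ± 0.06 in A0R, 10.58 ± 0.02 in A3R, 10.21 ± 0.17 in H0R and 10.28 ± 0.14 in H3R. Neither it nor HK1 or HK2 was called with selection, with differences of -0.28 to 0.12.

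Of the 12 glycolytic enzymes tested, from GPI to PKM, limma called 0 in A549, with 0 at an unadjusted p below 0.05. Of their 12 estimates 11 were below 0, beside 8722 of all 16939 genes, a description with no test. The 95% intervals of these 12 changes in A549 reached from -0.69 to 0.64 at their widest, those of ALDOC. In HTB56 the exception was PFKP, the platelet-type phosphofructokinase, which catalyses the committed step. PFKP read 9.48, 9.39 and 9.23 in H0R and 9.88, 9.77 and 9.69 in H3R. The groups did not overlap, and PFKP rose by 0.42 (SE 0.12, limma adjusted p = 0.025). This call was lost when arrays were centred on their medians (0.0696) and without H0R replicate 2 or 3 or H3R replicate 1 or 2 (0.0609 to 0.0999). The sister genes went the other way in estimate, without a call: PFKL differed by -0.30 (adjusted p = 0.242) and PFKM by -0.18 (0.251) in HTB56.

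No other enzyme was called. GAPDH, which oxidises glyceraldehyde phosphate, was 13.80 ± 0.05 in A0R, 13.79 ± 0.07 in A3R, 13.96 ± 0.05 in H0R and 14.08 ± 0.06 in H3R. Its 95% interval for the change with selection was -0.20 to 0.18 in A549 and -0.07 to 0.32 in HTB56. ENO1, TPI1, PGK1, ALDOA and PKM differed by at most 0.17 in size in either line. The regulators PFKFB3 and PFKFB4, whose product activates phosphofructokinase, differed by -0.33 and 0.15 in HTB56 and by -0.19 and 0.09 in A549, without a call except for PFKFB3 in HTB56 with array weights (adjusted p = 0.0499). For pyruvate, the lactate dehydrogenase genes LDHA and LDHB and the kinase gene PDK1 differed by -0.19 to -0.02 in A549 and by -0.06 to 0.13 in HTB56. The 95% intervals of these 3 genes lay within -0.46 and 0.32 in both lines, so changes beyond those bounds lie outside them.

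CA12, a carbonic anhydrase of the cell surface that handles acid outside the cell, fell in HTB56 and was not called in A549. Its H0R arrays read 7.25, 7.51 and 7.27 and its H3R arrays 6.48, 6.20 and 6.28. The groups stood clear of each other, with a fall of 1.02 (SE 0.12, limma adjusted p = 2.51e-05), or 2.03-fold. A549 carried far more CA12 signal, at 12.17 ± 0.08 in A0R and 12.08 ± 0.17 in A3R (adjusted p = 0.922).

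Genes of secreted hypoxia-induced proteins moved in both directions. STC1, which encodes the glycoprotein hormone stanniocalcin 1, changed in opposite directions in the 2 lines. The A549 arrays read 5.16, 4.75 and 5.23 in A0R and 6.08, 5.93 and 6.004 in A3R, so that all selected arrays were above all unselected ones. STC1 rose there by 0.96 (SE 0.20, limma adjusted p = 0.0268). That call was lost without A0R replicate 1 (0.063) or 2 (0.129, with a change of 0.81) and without A3R replicate 1 (0.0977), 2 (0.0703) or 3 (0.0722). In HTB56 the arrays read 7.53, 7.05 and 7.39 in H0R and 5.93, 6.03 and 6.82 in H3R, again without overlap, although H3R replicate 3 lay close to the H0R range. STC1 fell by 1.06 in HTB56 (SE 0.20, adjusted p = 0.00173).

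ANGPTL4, which encodes an inhibitor of lipoprotein lipase, rose in selected HTB56. It read 5.92, 5.82 and 5.73 in H0R and 6.63, 6.55 and 6.66 in H3R, which did not overlap, a rise of 0.79 (SE 0.14, limma adjusted p = 0.000817). In A549 the difference was -0.14 (adjusted p = 0.867), and A0R replicate 2 was the highest A549 array at 6.64. ADM, the gene of the vasodilator peptide adrenomedullin, read 9.67, 9.55 and 9.22 in H0R and 9.11, 9.08 and 8.55 in H3R. All H3R arrays were below the H0R arrays, and the fall of 0.57 (SE 0.19) was just past the threshold (adjusted p = 0.0491, and 0.00206 with the replicate block). The ADM call in HTB56 was lost under 10 of 22 alternatives, with adjusted p up to 0.214 without H3R replicate 3. Of these 10, 8 left out 1 array: A0R replicate 2, any A3R array, H0R replicate 1 or 2, or H3R replicate 2 or 3. In A549, ADM read 9.65, 9.40 and 8.91 in A0R and 8.99, 8.79 and 8.78 in A3R. The groups overlapped, and the difference of -0.46 was called with the replicate block alone (adjusted p = 0.389 without it and 0.0393 with it). VEGFA, the main growth factor of blood vessels, was 7.28 ± 0.10 in A0R, 7.01 ± 0.12 in A3R, 6.57 ± 0.05 in H0R and 6.74 ± 0.26 in H3R. VEGFA and STC2, the second stanniocalcin gene (-0.28 in HTB56 and 0.15 in A549), were not called with selection.

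**Figure D2:**
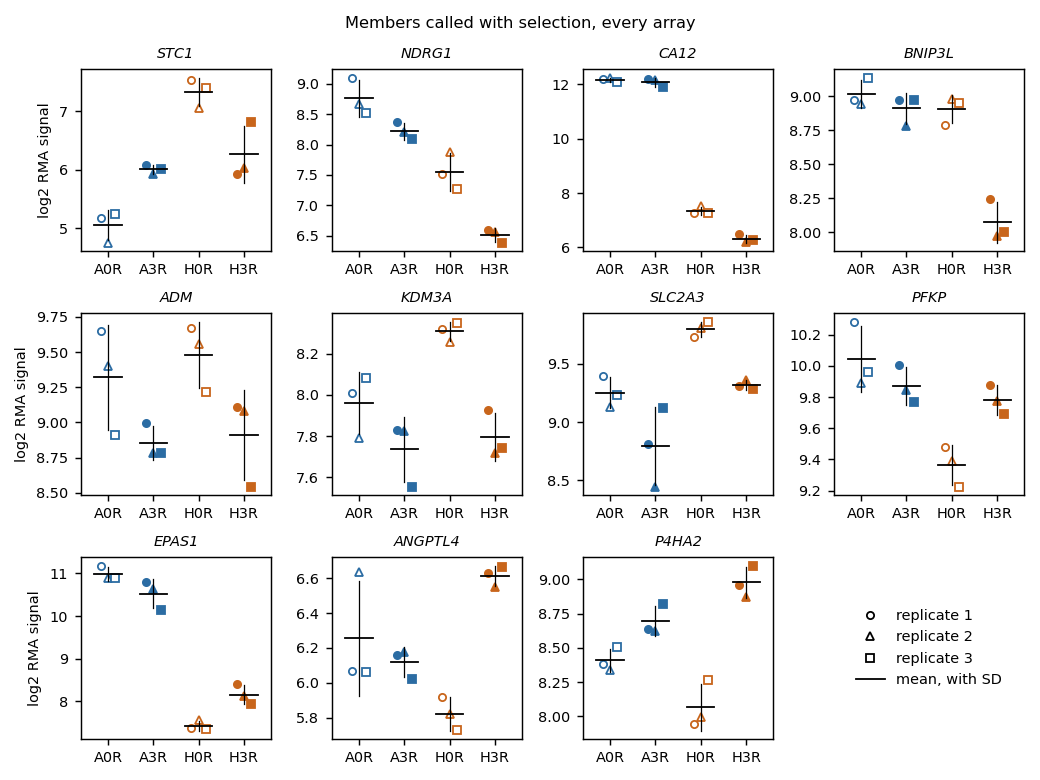
Log2 RMA signal of the 11 genes called with selection in HTB56 or A549, on every array of A0R, A3R, H0R and H3R, with a symbol for each replicate number. Horizontal bars are means of 3 arrays and vertical bars are SD. Axes do not start at 0. H3R lies below H0R for STC1, NDRG1, CA12, BNIP3L, ADM, KDM3A and SLC2A3 and above it for PFKP, EPAS1, ANGPTL4 and P4HA2.

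NDRG1, BNIP3L and KDM3A were the other members that fell in HTB56. NDRG1 is a stress-induced gene that is used as a marker of hypoxia. It read 7.52, 7.89 and 7.26 in H0R and 6.60, 6.56 and 6.39 in H3R, a fall of 1.04 without overlap (SE 0.17, limma adjusted p = 0.000437). In A549 all A3R arrays (8.37, 8.20 and 8.09) were also below all A0R arrays (9.10, 8.66 and 8.52). That difference of -0.54 had an adjusted p of 0.169, and 0.0464 with the replicate block.

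BNIP3L (NIX), a receptor that marks mitochondria for removal, read 8.79, 8.98 and 8.95 in H0R and 8.24, 7.98 and 7.998 in H3R. The fall of 0.83 (SE 0.11, limma adjusted p = 8.23e-05) separated the groups, while the A549 arrays stayed between 8.78 and 9.14. KDM3A, a histone H3 lysine demethylase, went from 8.32, 8.26 and 8.35 in H0R to 7.93, 7.72 and 7.74 in H3R and fell by 0.51 (SE 0.11, adjusted p = 0.00455). In A549 the KDM3A difference was -0.22 (adjusted p = 0.556). MXI1, an antagonist of MYC, differed by -0.33 in HTB56 without overlap of its arrays. It was not called (adjusted p = 0.0543) except under 7 of 22 alternatives, the replicate block among them (0.012).

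P4HA2 ran against these. P4HA1 and P4HA2 encode the catalytic subunits of prolyl 4-hydroxylase, which modifies collagen in the endoplasmic reticulum. P4HA2 read 7.94, 7.998 and 8.26 in H0R and 8.96, 8.87 and 9.10 in H3R, and rose by 0.91 (SE 0.11, limma adjusted p = 4.35e-05). In A549 all A3R arrays (8.64, 8.62 and 8.82) were above all A0R arrays (8.38, 8.34 and 8.50), a difference of 0.29 that was not called (adjusted p = 0.352). P4HA1 differed by 0.34 in HTB56 (adjusted p = 0.297, and 0.0178 with the replicate block). BNIP3 was not called with selection, with differences of 0.07 in A549 and -0.02 in HTB56, and neither was ANKRD37 (0.03 and -0.13). Over all 39 genes, the arrays of the groups were fully separate for 20 in HTB56, 8 higher and 12 lower, where this held for 34.3% of all genes tested (16.5% higher and 17.8% lower). In A549 they were separate for 7, 2 higher and 5 lower, beside 12.7% of all genes (6.27% higher and 6.48% lower).

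The difference between the responses of the lines was tested with an interaction term. 7 of the 39 genes (17.9%) were called for it, 4 higher and 3 lower, where 11.8% of all genes were called (5.22% higher and 6.58% lower). STC1 differed most, by -2.02 (SE 0.29, limma adjusted p = 0.000314), the sum of its rise in A549 and its fall in HTB56. The change was lower in HTB56 than in A549 for CA12 (-0.93, SE 0.17, adjusted p = 0.00185) and BNIP3L (-0.73, SE 0.16, 0.00677). It was higher in HTB56 for EPAS1 (1.19, SE 0.23, 0.00339), ANGPTL4 (0.93, SE 0.19, 0.00589), P4HA2 (0.62, SE 0.16, 0.0183) and PFKP (0.59, SE 0.17, 0.0383). The P4HA2 call was lost without H0R replicate 1 (0.0541) or 2 (0.05). The PFKP call was lost with arrays centred on their medians (0.0784) and without A0R replicate 1, A3R replicate 2 or 3, H0R replicate 2 or 3, or H3R replicate 1 or 2 (0.0687 to 0.0932). For NDRG1, ADM, KDM3A and SLC2A3, called in HTB56 and not in A549, the lines were not shown to differ. Their differences were -0.50 (95% interval -1.002 to 0.01), -0.10 (-0.68 to 0.47), -0.29 (-0.63 to 0.05) and -0.02 (-0.45 to 0.40). These intervals come from the fit without the replicate block, and the block called none of these differences either.

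Far larger differences separated the lines themselves than separated selected from unselected cells. Between the unselected lines 27 of the 39 genes were called (69.2%), 10 higher and 17 lower in HTB56, where 45.2% of all genes were called (24.9% higher and 20.3% lower). With the replicate block 11 were higher and 18 lower, beside 4923 and 4170 of all genes. Called differences of at least 2-fold were found for 14 of the 39 genes, 7 higher in each line. The same count was not made over all genes, so it is not read as a trait of the list. These comparisons share arrays with the tests of selection and add nothing independent to them.

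BNIP3, a mitophagy receptor gene strongly induced by HIF, was bright in A549 and dim in HTB56. Its A549 arrays read 9.51, 9.15 and 9.53 in A0R and 9.69, 9.45 and 9.27 in A3R. In HTB56 it read 4.34, 4.23 and 4.43 in H0R and 4.26, 4.35 and 4.33 in H3R, near the level of markers such as NKX2-1 (4.17 in H0R) and CD3E (4.11). The log2 signals of the unselected lines differed by -5.06 (SE 0.13, limma adjusted p = 8.94e-13). BNIP3 was not shown to be above background in HTB56, so this is a lower bound on the size of the difference and no fold is given. CA12 was 28.3-fold lower in unselected HTB56 (-4.82, SE 0.12) and EPAS1 11.8-fold lower (-3.56, SE 0.16). The related receptor gene BNIP3L was not called between the unselected lines, at 9.02 ± 0.10 in A0R and 8.91 ± 0.11 in H0R (95% interval of the difference -0.35 to 0.13).

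The isoform genes of a glycolytic step did not always differ together between the lines. At the hexokinase step HK2 was 5.14-fold higher in unselected HTB56 (2.36, SE 0.29, limma adjusted p = 9.52e-06) and HK1 1.72-fold higher (0.79, SE 0.15). At phosphofructokinase, PFKM was higher in HTB56 (1.12, SE 0.10) while PFKP (-0.68, SE 0.12) and PFKL (-0.45, SE 0.16) were lower. The PFKL call was lost without A0R replicate 1 or 2 or H0R replicate 1 or 3 (adjusted p 0.0714 to 0.151) and under 2 further settings besides the stricter threshold. PFKFB4 was higher in HTB56 (1.10, SE 0.20), and PFKFB3 4.16-fold lower (-2.06, SE 0.21).

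At aldolase, ALDOC, the isoform best known from brain, was 7.91-fold higher in HTB56 (2.98, SE 0.31, limma adjusted p = 1.39e-06), and the common isoform ALDOA did not differ beyond its spread (-0.07, SE 0.13). HK2 and ALDOC were raised on A0R replicate 2, at 6.66 and 7.25 beside 5.54 and 5.52 (HK2) and 6.26 and 5.84 (ALDOC) on the other A0R arrays. Without that array their line differences were 2.74 and 3.38. At enolase, the neuronal isoform ENO2 was lower in HTB56 (-0.86, SE 0.17) and ENO1 was not called (-0.14, adjusted p = 0.219). LDHA and LDHB were not called, and PDK1 was 2.39-fold higher in HTB56 (1.26, SE 0.12). STC2 was 10-fold higher in HTB56 (3.33, SE 0.17) and STC1 4.85-fold higher (2.28, SE 0.20). EGLN1 (-1.09, SE 0.11), EGLN3 (-1.33, SE 0.18), NDRG1 (-1.21, SE 0.17) and VEGFA (-0.72, SE 0.13) were lower in HTB56.

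**Figure D3:**
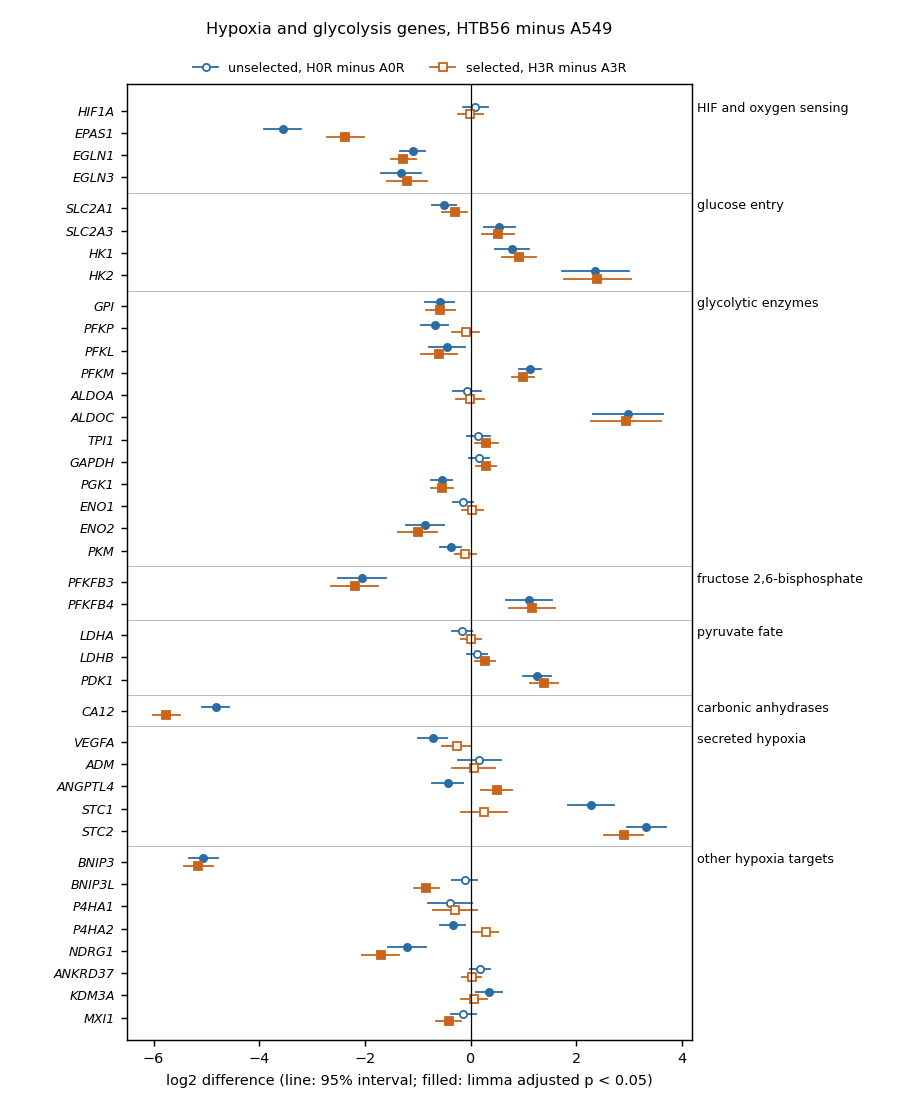
Log2 difference between HTB56 and A549 for the 39 genes, by role, in unselected cells (H0R minus A0R, circles) and selected cells (H3R minus A3R, squares), with 3 arrays per group. Lines are 95% intervals from the limma fit and filled symbols have an adjusted p below 0.05. BNIP3 and CA12 lie near -5 in both, while STC1 moves from 2.28 to 0.26 and ANGPTL4 from -0.43 to 0.50.

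In the selected lines 26 of the 39 (66.7%) were called, with 12 higher and 14 lower in H3R than in A3R, where 44.6% of all genes were called (24.9% higher and 19.7% lower). With cyclic loess on top of RMA the split was 8 higher and 16 lower. With the replicate block it was 13 higher and 15 lower, beside 4956 and 3977 of all genes. 21 of the 39 genes were called in both comparisons of the lines, 20 of them in the same direction. Over all genes these counts were not made, so they are not read as a trait of the list. ANGPTL4 was the one that turned, from -0.43 (SE 0.14) in unselected to 0.50 (SE 0.14) in selected cells. Its call between unselected lines was lost without A0R replicate 2 (limma adjusted p = 0.0909) or H0R replicate 3 (0.0628). The gap of STC1 shrank from 2.28 to 0.26 and was not called between selected lines (adjusted p = 0.347). The gap of EPAS1 went from -3.56 to -2.37, that of PFKP from -0.68 to -0.09, that of CA12 from -4.82 to -5.76 and that of BNIP3L from -0.11 to -0.84. These are the genes called for the interaction, seen from the other side, with P4HA2 (-0.34 and 0.28). The genes with no call in any of the 5 comparisons were HIF1A, ALDOA, ENO1, LDHA, P4HA1 and ANKRD37. With the replicate block, P4HA1 was called between the unselected (-0.39, adjusted p = 0.127 without the block and 0.00379 with it) and the selected lines (-0.29, 0.261 and 0.0198). The block also called ANKRD37 between the unselected lines (0.18, 0.105 and 0.0391) and P4HA2 between the selected lines (0.28, 0.0527 and 0.0049).

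The stretches before the transcription starts of 6 genes are shown: BNIP3, CA12 and EPAS1 differed strongly between the lines, and KDM3A, ANGPTL4, P4HA2, CA12 and EPAS1 were called with selection in HTB56, in both directions. They are examples and no ranking, and STC1, NDRG1, BNIP3L, SLC2A3 and VEGFA had no entry in the table used. Each is the 250 bases before the start, 5′ to 3′ on the strand of the gene, from RefSeq on GRCh38.p14; where RefSeq has several starts, the most upstream was taken. Capitals mark the core of the hypoxia response element, searched as ACGTG and GCGTG on both strands, so that CACGT and CACGC are also marked and a CACGTG counts as 2 overlapping matches.
BNIP3 (chr10:131981924-131982173, minus strand): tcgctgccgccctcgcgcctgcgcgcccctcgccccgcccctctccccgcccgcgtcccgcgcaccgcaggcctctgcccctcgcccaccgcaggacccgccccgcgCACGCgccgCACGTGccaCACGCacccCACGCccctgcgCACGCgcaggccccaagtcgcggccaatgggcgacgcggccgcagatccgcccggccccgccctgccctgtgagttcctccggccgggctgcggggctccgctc
CA12 (chr15:63381847-63382096, minus strand): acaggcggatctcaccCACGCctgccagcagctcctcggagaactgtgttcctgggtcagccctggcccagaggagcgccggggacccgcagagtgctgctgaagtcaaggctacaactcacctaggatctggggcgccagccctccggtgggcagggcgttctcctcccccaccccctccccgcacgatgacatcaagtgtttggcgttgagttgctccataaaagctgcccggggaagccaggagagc
KDM3A (chr2:86441121-86441370, plus strand): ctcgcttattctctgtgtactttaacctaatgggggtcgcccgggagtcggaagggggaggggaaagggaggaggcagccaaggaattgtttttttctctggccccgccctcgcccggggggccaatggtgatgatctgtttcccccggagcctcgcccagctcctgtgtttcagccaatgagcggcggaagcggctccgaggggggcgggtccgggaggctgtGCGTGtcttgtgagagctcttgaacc
EPAS1 (chr2:46297157-46297406, plus strand): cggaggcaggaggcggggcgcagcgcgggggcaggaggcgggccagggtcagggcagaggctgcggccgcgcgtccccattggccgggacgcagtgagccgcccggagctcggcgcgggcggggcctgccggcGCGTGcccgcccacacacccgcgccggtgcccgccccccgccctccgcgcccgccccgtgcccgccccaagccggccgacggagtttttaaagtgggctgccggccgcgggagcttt
ANGPTL4 (chr19:8363905-8364154, plus strand): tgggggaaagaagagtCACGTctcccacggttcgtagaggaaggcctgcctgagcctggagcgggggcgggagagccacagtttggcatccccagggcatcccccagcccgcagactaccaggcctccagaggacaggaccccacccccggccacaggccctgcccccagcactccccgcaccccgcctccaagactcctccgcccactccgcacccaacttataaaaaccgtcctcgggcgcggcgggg
P4HA2 (chr5:132227092-132227341, minus strand): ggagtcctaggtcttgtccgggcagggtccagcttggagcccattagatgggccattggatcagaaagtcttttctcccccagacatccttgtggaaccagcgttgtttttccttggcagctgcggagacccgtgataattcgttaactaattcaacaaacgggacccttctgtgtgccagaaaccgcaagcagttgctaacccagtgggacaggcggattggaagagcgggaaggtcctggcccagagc
The BNIP3 stretch held 6 matches that began between 143 and 104 bases before the start, and 41 CG pairs. Of 27305 genes with a stretch of this length, 0.648% had at least 6 matches and 1.68% at least 41 CG pairs. The CA12, KDM3A, EPAS1 and ANGPTL4 stretches held 1 match each and the P4HA2 stretch 0. Of the 36 listed genes with such a stretch, PGAM1 and CA9 included, 24 (66.7%) held at least 1 match, beside 43.1% of all genes. For ACGTG alone the shares were 38.9% and 18.6%, and for GCGTG alone 38.9% and 31.9%. The listed genes also had more CG pairs, with a median of 22 beside 10 over all genes, and both cores contain a CG. LDHA and ALDOC held 5 matches each, and the first was not called in any comparison. A match describes these letters and shows no binding.

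Genes around the list were read from 4 further lists of 136 genes, of which 122 were tested. These lists too were chosen with earlier results of these data known. In HTB56 36 of the 122 (29.5%) were called, 15 higher and 21 lower, and in A549 4 (3.28%), 1 higher and 3 lower, beside the same backgrounds of 19.5% and 1.75%. With arrays centred on their medians the HTB56 split was 8 higher and 21 lower, and with the replicate block 18 higher and 30 lower. Over all 16939 genes tested, the block gave 2186 higher and 2558 lower in HTB56, and 297 and 265 in A549. These are the backgrounds for the block counts of the 4 lists below. The A549 count was 8 with the replicate block, 1 without A0R replicate 1 or A3R replicate 3, 2 without A3R replicate 1 or 2, and 6 without A0R replicate 3. Without H0R replicate 2 the HTB56 count was 22. For the interaction 15 were called (12.3%), 3 higher and 12 lower, near the 11.8% of all genes (5.22% higher and 6.58% lower). With the replicate block 31 were called, 9 higher and 22 lower, beside 1664 and 1794 of all 16939 genes. The median change of the 122 genes was 0.00 in A549 and -0.01 in HTB56.

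The genes that steer pyruvate held calls in both lines. PDK4, a kinase that switches off pyruvate dehydrogenase, read 8.64, 8.37 and 8.49 in A0R and 7.73, 7.51 and 7.09 in A3R, a fall of 1.06 (SE 0.21, limma adjusted p = 0.0155). In HTB56 it went from 6.37, 7.07 and 6.97 to 6.16, 5.74 and 5.49 and fell by 1.003 (SE 0.21, adjusted p = 0.00305). Neither pair of groups overlapped. In A549 the call of PDK4 needed A0R replicate 1 (0.0741 without it) and A3R replicate 3 (0.069 without it). In HTB56 the kinase gene PDK3 (-0.85, SE 0.13), the opposing phosphatase gene PDP1 (-0.96, SE 0.13) and the complex subunit genes DLAT (-0.53) and DLD (-0.39) also fell, so that 5 of 21 genes of that list were lower and 0 higher, beside 10.9% and 8.57% of all genes. With the replicate block 7 were lower and 1 higher. The DLD call was lost without H0R replicate 3 (0.103) or H3R replicate 2 (0.0985), and DLAT and DLD are named after their values were seen.

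In A549 SLC16A7, the monocarboxylate transporter MCT2, went from 4.80, 5.27 and 4.72 to 6.37, 6.15 and 5.86. It rose by 1.20 without overlap (SE 0.17, limma adjusted p = 0.00133), and differed by 0.44 in HTB56 (adjusted p = 0.09, and 0.0269 with the replicate block). MPC2, a subunit of the mitochondrial pyruvate carrier, fell by 0.44 in A549 (SE 0.09, adjusted p = 0.0261), a call lost without any 1 of the 6 A549 arrays (0.0529 to 0.0922). AK4, a mitochondrial adenylate kinase induced by hypoxia, fell by 0.77 in A549 (SE 0.16, adjusted p = 0.0278), a call lost without any A549 array other than A0R replicate 2 (0.066 to 0.117) and with the mean of its probe sets (0.199).

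**Figure D4:**
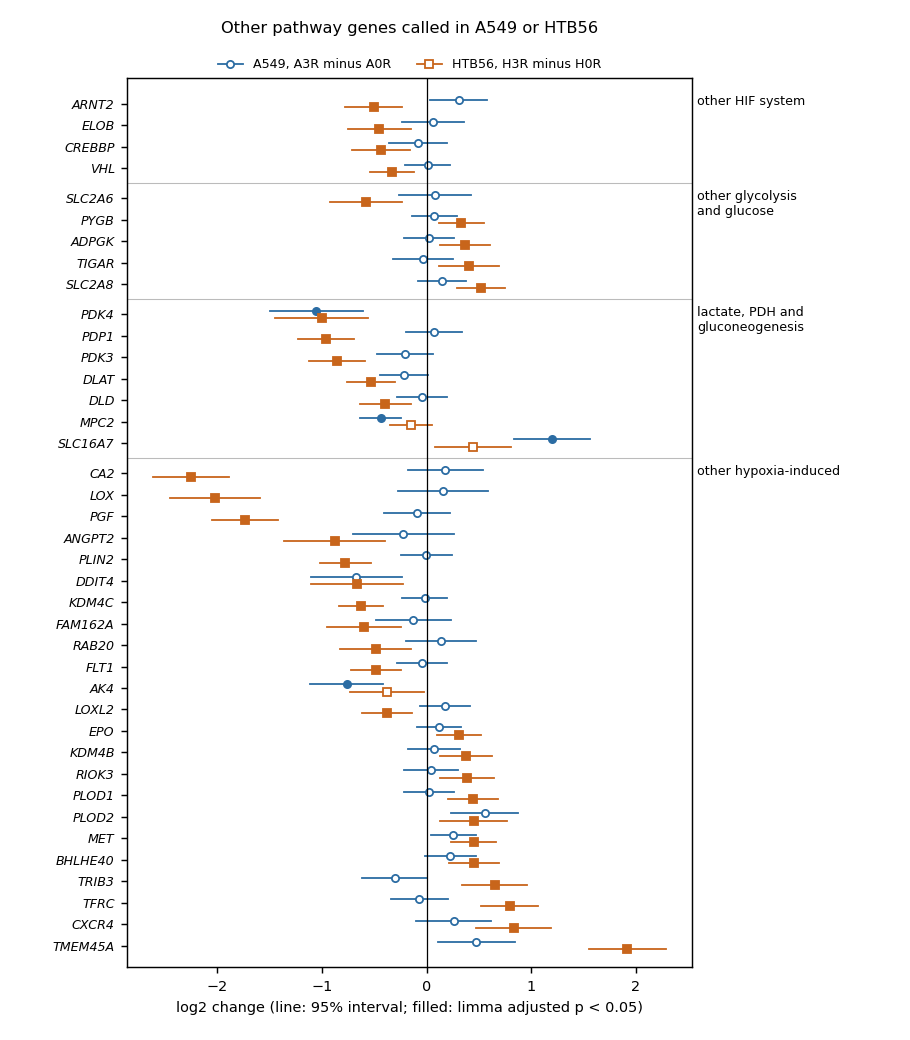
Log2 change with selection of the 39 further pathway genes called in A549 or HTB56, by list, in A549 (circles) and HTB56 (squares), with 3 arrays per group. Lines are 95% intervals from the limma fit and filled symbols have an adjusted p below 0.05. CA2, LOX and PGF fall by 1.74 to 2.25 and TMEM45A rises by 1.92 in HTB56, and PDK4 is lower in both lines.

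Of 56 further hypoxia-induced genes tested in HTB56, 11 were higher and 11 lower, beside 8.57% higher and 10.9% lower of all genes. In A549 limma called 0 of the 56 higher and 1 lower, and 3 higher and 2 lower with the replicate block. In HTB56 the block gave 11 higher and 16 lower. CA2, a cytosolic carbonic anhydrase, fell 4.77-fold, from 7.26, 7.46 and 7.60 to 5.08, 5.002 and 5.47 (log2 change -2.25, SE 0.17, limma adjusted p = 3.48e-07). LOX, which crosslinks collagen, went from 8.76, 8.93 and 9.04 to 6.97, 6.88 and 6.79 and fell by 2.02 (SE 0.20). PGF, placental growth factor of the VEGF family, fell by 1.74 (SE 0.15). None of these 3 groups of arrays overlapped. TMEM45A, a hypoxia-induced membrane protein gene, went from 5.43, 5.35 and 5.94 to 7.42, 7.39 and 7.67 and rose by 1.92 (SE 0.17). The chemokine receptor gene CXCR4 rose by 0.83 (SE 0.17) and the transferrin receptor gene TFRC by 0.80 (SE 0.13). CA2, LOX, PGF, TMEM45A and TFRC were also called for the interaction. PLOD1 and PLOD2, named after their values were seen as the lysyl counterparts of P4HA1 and P4HA2, rose by 0.44 (SE 0.11) and 0.45 (SE 0.15). The PLOD1 call was lost without H3R replicate 1 (0.0526). The PLOD2 call was lost without A0R replicate 1, A3R replicate 1 or 2, any H0R array, or H3R replicate 1 or 3 (0.0532 to 0.153), with no filter (0.0509), and with median centring (0.0811) or cyclic loess (0.0746).

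Of 15 further genes of the HIF system, 4 were lower in HTB56 and 0 higher, beside 10.9% and 8.57% of all genes, and the replicate block gave 4 lower and 1 higher. In A549 limma called 0, with 1 at an unadjusted p below 0.05. ARNT2, a partner of the alpha subunits, fell by 0.51 (SE 0.13, limma adjusted p = 0.0104). ELOB, a subunit of the ligase that destroys them, fell by 0.45 (SE 0.14), and the coactivator gene CREBBP by 0.44 (SE 0.13). VHL, the subunit of that ligase that binds the hydroxylated factors, named after its values were seen, fell by 0.33 (SE 0.10). The call was lost without H0R replicate 2 or 3 or any H3R array for VHL (0.0662 to 0.13). It was lost without H0R replicate 1 or 2 or any H3R array for ELOB (0.0582 to 0.159), and without H0R replicate 1 or 2 or H3R replicate 3 for CREBBP (0.0791 to 0.127). Of 30 further glycolysis and glucose genes, 5 were called in HTB56 (16.7%, beside 19.5% of all genes), 4 higher and 1 lower, and with the replicate block 5 were higher and 3 lower. In A549 limma called 0 of them, with 2 at an unadjusted p below 0.05. SLC2A8 rose by 0.52 (SE 0.11), TIGAR by 0.40 (SE 0.13) and ADPGK by 0.37 (SE 0.11), and SLC2A6 fell by 0.58 (SE 0.16). SLC2A8 and SLC2A6 are glucose transporter genes, TIGAR lowers the activator of phosphofructokinase, and ADPGK is a glucokinase that uses ADP. The TIGAR call was lost under 14 of 22 alternatives. The calls were lost without H0R replicate 1 or 2 or H3R replicate 1 or 3 for ADPGK (0.0681 to 0.156), and also with median centring (0.0675) or the HTB56 arrays alone (0.0549). For SLC2A6 this held without H0R replicate 1 or 2 or H3R replicate 1 or 2 (0.056 to 0.0995).

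Marker genes of cell types also changed with selection, in both lines. Of the epithelial markers, KRT7 was lower (-0.91) and EPCAM higher (1.02) in H3R, and KRT19 was higher (1.14) and CDH1 lower (-0.85) in A3R. The lung lineage gene FOXA2 was higher in H3R (0.65). With the replicate block KRT8 (0.26) was also called in HTB56 and SFTPC (0.38), LUM (0.91) and CD68 (-0.44) in A549. Of 6 fibroblast markers tested, 4 were called higher in H3R, COL1A1 (1.41), COL3A1 (1.29), LUM (1.78) and PDGFRA (0.71), and 0 lower. The mean log2 level of the 6 was 5.82 to 6.12 on the H0R arrays, 6.70 to 6.88 on the H3R arrays, and 4.98 to 5.38 over the A549 arrays. COL1A2 stayed at 5.45 in H0R and 5.50 in H3R. Of 6 leukocyte markers, CD68 (0.65) and LYZ (1.67) were higher in H3R, and CD3E read 4.11 and 4.04. The mean level of the 6 was 5.10 to 5.21 in H0R, 5.52 to 5.66 in H3R and 5.38 to 5.50 in A549. Of 5 endothelial and 3 erythroid markers 0 were called in either line by limma, with 0 and 1 at an unadjusted p below 0.05 in HTB56 and 0 in A549. Of 12 proliferation genes, MKI67 was higher (0.85) and MCM2 (-0.71), MCM3 (-0.37) and MCM5 (-0.48) lower in H3R, and 0 were called in A549, where 2 had an unadjusted p below 0.05. The block added CCNB2 (0.30) and PCNA (0.29) as higher in H3R, for 3 higher and 3 lower. The part of these markers in the changes above was not tested, and in such bulk samples a smaller share of cells and less RNA per cell cannot be told apart.

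Several of the 39 genes followed the replicate number across groups. Replicate 3 was the lowest array in all 4 groups for 10 genes (25.6%, where this held for 12.4% of all genes tested): EPAS1, SLC2A1, HK1, GPI, ALDOA, ALDOC, TPI1, ENO2, ADM and NDRG1. It was the highest in all 4 groups for EGLN3, PGK1, P4HA1 and P4HA2 (10.3%, beside 9.87% of all genes). Replicate 1 was the highest in all 4 groups for PFKP, ENO1, PFKFB3 and ADM (10.3%, beside 5.95% of all genes). It was the lowest for 0 of the 39 (beside 3.15%). Replicate 2 was the highest for PFKFB4 (2.56%, beside 1.62%) and the lowest for PGK1 (2.56%, beside 5.96%). P4HA1 lay 0.35 to 0.55 above the mean of the other 2 replicates in each group, and ENO2 0.37 to 0.46 below it (-0.46 to -0.37). These gaps are as large as several of the changes called with selection, and the block removes them.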

How the data were processed

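Messenger RNA of 12 samples was measured on Affymetrix whole-transcript arrays. The deposited values are log2 signals from RMA. The submitters' processing notes name Affymetrix Expression Console as the authors' software, with versions and build not given in the sources read. RMA subtracts background, gives all arrays 1 distribution and fits the probes of a set together, which compresses changes of dim genes and hides a shift of all mRNA. No scanner data entered, so neither these steps nor the slide were varied. Of 33297 probe sets none lacked a value, no column was unused and no arrays were identical.

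Names came from a table of platform annotation. In it 19460 had 1 symbol, 1754 several and 12083 none, and only the first kind was used. Genes were represented by the brightest probe set over 12 arrays and tested where it exceeded the 20th percentile of its array on at least 3 arrays. Group means were fitted to the 12 arrays together with limma 3.58.1 (R 4.3.3). Its two-sided moderated p-values were adjusted by Benjamini and Hochberg over all genes tested, at a threshold of 0.05, and 95% intervals come from this fit. The number of arrays limits the precision. On simulated data for HTB56, 200 of 16939 genes were changed. The fit called 89% of those changed by 1 and 41% of those changed by 0.5 on the log2 scale. Far more genes were called in the data themselves, so these shares do not carry over. Tables and figures used Python 3.11.15, pandas 2.3.3 and matplotlib 3.10.9. Promoter sequences come from RefSeq tables.

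Pairing was checked over all genes with each array's deviation from its group mean. Same-numbered arrays correlated at 0.16 to 0.549 and others at -0.417 to 0.204, and each of 12 arrays was closest to one of its own number. By this check, and not by the labels, the replicate numbers pair the arrays. The members and lists were chosen with earlier results of these data known. All listed members are named; of each further list, up to 3 called genes per direction and line are named, and exceptions are marked. Alternatives were the dim filter, the probe set per gene, median centring, cyclic loess, the arrays fitted, the block, eBayes settings, array weights, a threshold of 0.01 and leaving out each array.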

Additional observations from a re-analysis of the deposited data

Results flagged for a closer look

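A change with selection that differs between the lines, by the interaction term of the limma fit, was found for 7 of the 39 listed genes. That is 17.9%, beside 11.8% of all genes. The change in HTB56 minus that in A549 was -2.02 for STC1, -0.93 for CA12, -0.73 for BNIP3L, 0.59 for PFKP, 0.62 for P4HA2, 0.93 for ANGPTL4 and 1.19 for EPAS1. STC1 is the gene whose change was called in both lines, in opposite directions.

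Among the 122 further pathway genes tested, 15 (12.3%) differed in the same way, beside 11.8% of all genes. The difference was -2.43 for CA2, -2.18 for LOX, -1.64 for PGF, -1.06 for TGFA, -1.03 for PDP1, -0.81 for ARNT2, -0.79 for IGFBP3, -0.77 for PLIN2, -0.75 for PGM2L1, -0.65 for PDK3, -0.61 for KDM4C and -0.56 for LOXL2. It was 0.86 for TFRC, 0.96 for TRIB3 and 1.44 for TMEM45A. The calls of PDK3, PGM2L1 and LOXL2 were lost when any of several single arrays was left out, with adjusted p up to 0.0754, 0.0742 and 0.0819. Those of P4HA2 and PFKP were lost in this way too, with adjusted p up to 0.0541 and 0.0932.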

How the results depend on the processing

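Under the alternatives no called change of a listed gene turned its direction in any of the 5 comparisons. In HTB56 8 of 11 calls held under all 22 alternatives, and for the interaction 5 of 7 under 21. The A549 call of STC1 did not. The count of listed genes called in A549 was 1, and 0 at a threshold of 0.01, 3 with the replicate block and 2 with array weights. Leaving out 1 array gave 0 to 1 in A549, 8 to 11 in HTB56, 5 to 8 for the interaction, 24 to 27 between unselected lines and 22 to 27 between selected lines. For the further pathway genes in A549 (4 called), the count was 1 at a threshold of 0.01, 8 with the replicate block and 7 with array weights, and 1 to 6 without 1 array. In HTB56 (36 called) it was 17 at a threshold of 0.01, 48 with the replicate block, 50 with array weights and 22 to 37 without 1 array. For their interaction (15 called) it was 31 with the replicate block and 12 to 16 without 1 array. The block raised the counts over all genes as well. It removes spread shared by arrays of one number, and beyond that the cause of these shifts was not tested. The replicate block changed no other call of a listed gene with selection than those of ADM and NDRG1 in A549 and P4HA1 and MXI1 in HTB56, and between the lines it added P4HA1, P4HA2 and ANKRD37. On simulated data with 200 of 16939 genes changed, 41% of changes of 0.5 were called in HTB56. In the data themselves limma called 3298 genes there. The adjustment is less strict where more genes change, so the simulated share does not carry over to these data. A gene without a call may still have changed.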
